A study of Drosophila melanogaster with 2 samples.

Results

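None of the 48 proteasome subunit genes of Drosophila melanogaster carried a reproducible peak of the CG10348-eGFP protein at its promoter in whole pupae. The genes were all protein-coding genes of the Ensembl annotation of the dm6 assembly whose symbol begins with Prosalpha or Prosbeta, or with Rpn or Rpt and a digit. They made up 48 of 13945 protein-coding genes on the chromosome arms 2L, 2R, 3L, 3R, 4 and X. The 32 general subunit genes were set apart from 16 testis-type genes, which carry a T or R suffix in the symbol (for example Prosalpha3T or Rpt3R). A gene was called bound when the summit of a conservative peak lay within 1 kb of one of its annotated transcription start sites (TSSs). The conservative list holds the regions that passed the authors' threshold on the irreproducible discovery rate (IDR). That rate is low for a region that ranks consistently high in the lists compared.

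The assay was ChIP-seq with an antibody against GFP on transgenic pupae, aged 2 days, of a strain carrying CG10348, a predicted zinc-finger protein, as an eGFP fusion. It had 2 biological replicates in 1 group, with no second condition. Whole animals were used and their sex was not recorded, so no tissue, the testis included, was measured apart from the rest of the body. The deposited lists hold no read counts. Depth was therefore unknown, and the 95% Wilson intervals given here cover counting error over genes only. The conservative list held 1814 peaks, the optimal list 1934, and the replicates' own thresholded lists 1284 and 1027. The ranked list of the pooled samples, from which the conservative peaks were taken, held 138658 regions.

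The proteasome is the protease that degrades ubiquitin-tagged proteins. Its 20S core is built of stacked rings of alpha subunits, which form the gate, and beta subunits, some of which carry the proteolytic sites. The 19S regulatory particle consists of a base, whose Rpt ATPases unfold the substrate, and a lid, which holds the deubiquitinase Rpn11. In many eukaryotes the subunit genes are transcribed together and rise together when proteolysis is impaired. In flies this response depends on cnc, the homologue of the NRF transcription factors, which Keap1 restrains. Several subunits have paralogues in Drosophila that are expressed in the male germline. The testis-type genes here were set by the suffix of the symbol alone, and their expression was not measured.

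A promoter summit was present at 0 of 48 proteasome genes, against 1074 of 13945 protein-coding genes (7.7%, interval 7.27% to 8.16%). A count of 0 of 48 allows a share of up to 6.25%, and its Wilson interval ends at 7.41%. Both values lie just below the share of all genes, but genes are not independent samples and no test of this difference was run. The 48 also include a pair of genes that could not be assessed, described below. For the general subunits the count was 0 of 32, which allows up to 9.38%, and for the testis-type genes it was 0 of 16, which allows up to 18.8%. Both of these limits lie above the share of all genes, so a difference from the background was not detectable in either group alone, and the groups could not be told apart.

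**Figure D1:**
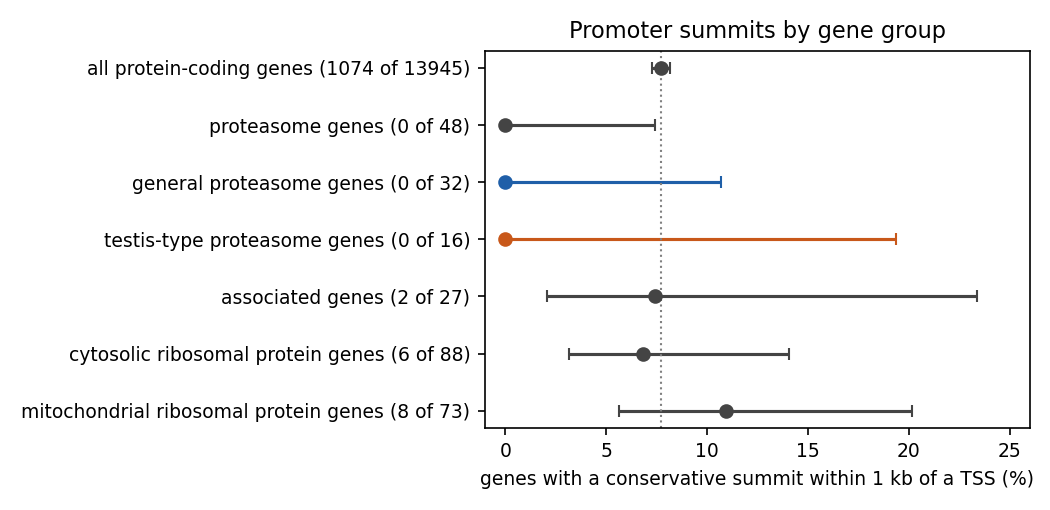
Share of genes with a conservative summit within 1 kb of a TSS (horizontal axis, %) for each group of genes (rows), with 95% Wilson intervals as error bars. The proteasome genes sit at 0, while all protein-coding genes sit at 7.7% and the mitochondrial ribosomal protein genes at 11.0%.

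The count stayed at 0 of 48 in the optimal list, where 8.16% of all genes had a promoter summit. It was 0 of 48 in replicate 1's own thresholded list (6.17% of all genes) and in replicate 2's (4.96%). Both of these shares lie below the 6.25% that a count of 0 of 48 allows. A wider limit of 2 kb, at which 10.2% of all genes were called, reached 1 proteasome gene, Prosbeta6, a structural subunit of the beta ring. Genes with several TSSs were called more often, 22.6% of genes with 3 or more against 5.11% of genes with 1. Of the proteasome genes, 36 of 48 (75%) had 1 TSS, against 73.5% of all genes. Only 1 of the 48 had 3 or more, against 1133 of 13945 genes. The mean number of TSSs was 1.27 for proteasome genes and 1.41 for all genes. The part of TSS number in the count of summits was not tested. Genes whose promoter region held the TSS of another gene were also called more often, 11.1% of 5985 genes against 5.13% of 7960. This arrangement was found at 22 of the 32 general subunit genes (68.8%) and at 4 of the 16 testis-type genes (25%), against 42.9% of all genes. The proteasome genes were short, with a median length of 1382 bp against 2166 bp for all genes and 4240 bp for genes with a promoter summit.

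A pair of genes could not be assessed. Prosalpha1, a general alpha-ring gene (2R, 7827303 to 7828678, minus strand), and its paralogue Prosalpha1R (2R, 7830413 to 7831771, minus strand) are near-identical neighbours. In both, 100% of the 31-base words within 1 kb of the TSSs occurred more than once in the genome, and neither gene had a ranked region in any list. The next highest share among the proteasome genes was 5.28%, at Rpn3. Windows in which more than 50% of these words were repeated were found at 312 of all 13945 genes (2.24%) and at 2 of the 1074 genes with a promoter summit (0.186%). Whether reads with several matches were kept is not given in the sources used here. Without this pair the count was 0 of 46, which allows up to 6.52%. No Wilson interval was computed for this count. With fewer genes it would end above the 7.41% found for 48, and so still closer to the 7.7% of all genes or beyond it.

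Below the threshold, the ranked lists give a signal for most promoters. This value is the authors' peak strength, with no stated scale, and serves here only to rank regions within one list. In the pooled list, 42 of the 48 proteasome genes (87.5%) had a ranked region with its summit within 1 kb of a TSS, close to the 88.5% of all genes. The strongest such region of each gene had a median signal of 25.4, with a range of 8.14 to 48.1, against a median of 26.5 over all genes that had one and 104 over genes with a promoter summit. The medians of the general genes (25.3) and testis-type genes (25.4) were nearly equal. The signal was above the median of all genes, counting genes without a region as 0, at 23 of the 48 proteasome genes. None reached the top 10% of genes, which began at a signal of 49.8. The IDR of these pooled regions ran from 0.155 to 0.885, so none was below 0.05. In replicate 2's own ranked list the IDR was 0.0384 at Rpn6 and 0.0428 at Prosalpha3T, and neither passed that replicate's threshold.

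Most peaks that passed were stronger than any region at a proteasome promoter. Of the 860 conservative promoter peaks, 39 (4.53%) had a pooled signal at or below the 48.1 of the strongest proteasome promoter region. The median peak had a signal of 97.6, and 95 of 100 peaks were above 50.3.

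**Figure D2:**
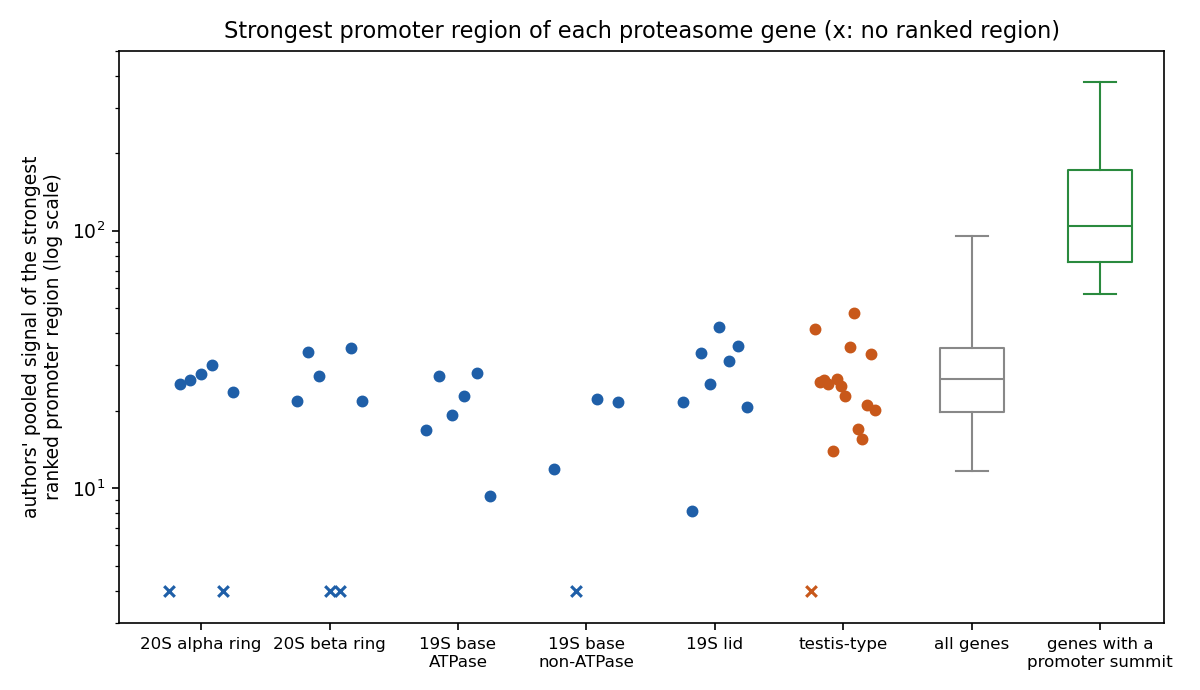
Authors' pooled signal (vertical axis, log scale) of the strongest ranked region within 1 kb of a TSS, 1 point per proteasome gene, arranged by the subunit's place in the complex, with crosses for genes without a region. The points lie between 8.14 and 48.1, and no place in the complex stands out.

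In the alpha ring of the core, signals were 25.3 at Prosalpha2, 26.3 at Prosalpha3, 27.7 at Prosalpha4, 30.1 at Prosalpha5 and 23.6 at Prosalpha7. These 5 genes span a narrow range around the median of all genes. Prosalpha6, like Prosalpha1, had no ranked region in the pooled list or in either replicate. The 19S base holds Rpn10, a ubiquitin receptor, which likewise had no region in any of the 3 lists.

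The beta ring holds the proteolytic sites, at Prosbeta1, Prosbeta2 and Prosbeta5. The pooled signal was 21.8 at Prosbeta1 and 33.9 at Prosbeta2, and Prosbeta5, with the chymotrypsin-like activity, had no region in the pooled list and a signal of 13.8 in replicate 2. Among the other beta genes, the signal was 27.2 at Prosbeta3, 35.0 at Prosbeta6 and 21.8 at Prosbeta7. Prosbeta4 had no pooled region and a signal of 6.45 in replicate 2. The 3 genes of the catalytic subunits thus did not stand apart from the structural ones.

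Among the ATPases of the base, Rpt5 had the highest signal (28.0) and Rpt6 the lowest (9.29), with 27.3 at Rpt2, 22.9 at Rpt4, 19.2 at Rpt3 and 16.8 at Rpt1. Their median was 21.1. The other base genes had 22.1 at Rpn13, a ubiquitin receptor, 21.6 at Rpn2 and 11.9 at Rpn1, the scaffold subunits. The lid genes had the highest median, 28.2, and the widest range, from 8.14 at Rpn12 to 42.3 at Rpn6, a scaffold subunit of the lid. The deubiquitinase gene Rpn11 had 21.7 and Rpn8, which encodes its partner, had 35.7. With 3 to 8 regions in each of these groups and overlapping ranges, no difference between them was tested.

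The strongest region of any proteasome gene lay at Prosbeta5R2, a testis-type paralogue of the catalytic subunit Prosbeta5. Its pooled signal was 48.1, and 10.6% of all genes had a stronger promoter region. The summit was 532 bp downstream of the TSS, in a coding exon. Replicate 1 had no ranked region there, and replicate 2 had a signal of 17.8, so the pooled value was not backed by both replicates.

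Rpn6 followed with a pooled signal of 42.3, 99 bp upstream of the TSS in an intron, and with 12.7 in replicate 1 and 28.5 in replicate 2. Its value in replicate 2 was the highest of the proteasome genes there, and 7.65% of all genes were stronger. Prosalpha3T had 41.4 at 719 bp upstream, between genes, with 13.0 and 19.1 in replicates 1 and 2. Rpn8 had 35.7 at 4 bp upstream, with 14.3 and 17.0. Prosbeta5R1, another testis-type paralogue of Prosbeta5, had 35.4 at 428 bp upstream, with 18.4 and 18.1. The latter 3 regions were ranked by both replicates at middling signals, and 14.4% to 21.7% of all genes were stronger in the pooled list.

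Each replicate on its own gave a like result. In replicate 1, 32 of the 48 genes (66.7%) had a ranked promoter region, with a median signal of 14.3 and a range of 6.83 to 22.8, against 72.2% of all genes and a median of 16.9. In replicate 2 there were 39 (81.3%), with a median of 13.5 and a range of 5.48 to 28.5, against 79.5% and 15.0. The top 10% of genes began at 29.8 in replicate 1 and held 0 of the proteasome genes. It began at 24.8 in replicate 2 and held 2 of them, Rpn6 and Prosalpha4T2, a testis-type paralogue of Prosalpha4. At Prosalpha4T2 the region of replicate 2 (signal 25.1) lay 894 bp downstream of the TSS, and the strongest region of replicate 1 (18.4) was a different one, upstream.

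Of the 42 pooled regions at proteasome promoters, 19 (45.2%) overlapped a ranked region of both replicates by at least 1 bp, 7 of replicate 1 alone, 13 of replicate 2 alone and 3 of neither. The share in both was 53.5% over the 12344 genes with a pooled region and 49.1% over the 11270 of these without a promoter summit, so the proteasome genes were near the background. Rpn5, a lid subunit, had the highest signal in replicate 1 (22.8) and the lowest in replicate 2 (5.48, in another region). Rpn3, also of the lid, had 22.8 and 16.0 in the same region. Over the 27 proteasome genes with a region in both lists, the order of the strongest signals was almost unrelated between replicates (Spearman's rho 0.0440), while over 8792 genes of all kinds rho was 0.472. These are descriptions across genes, which share libraries and a control and are not independent replicates. None of the 27 genes had a promoter summit, whereas the 8792 include genes that had one. The values of rho are therefore not like for like, and rho over genes without a promoter summit was not computed.

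**Figure D3:**
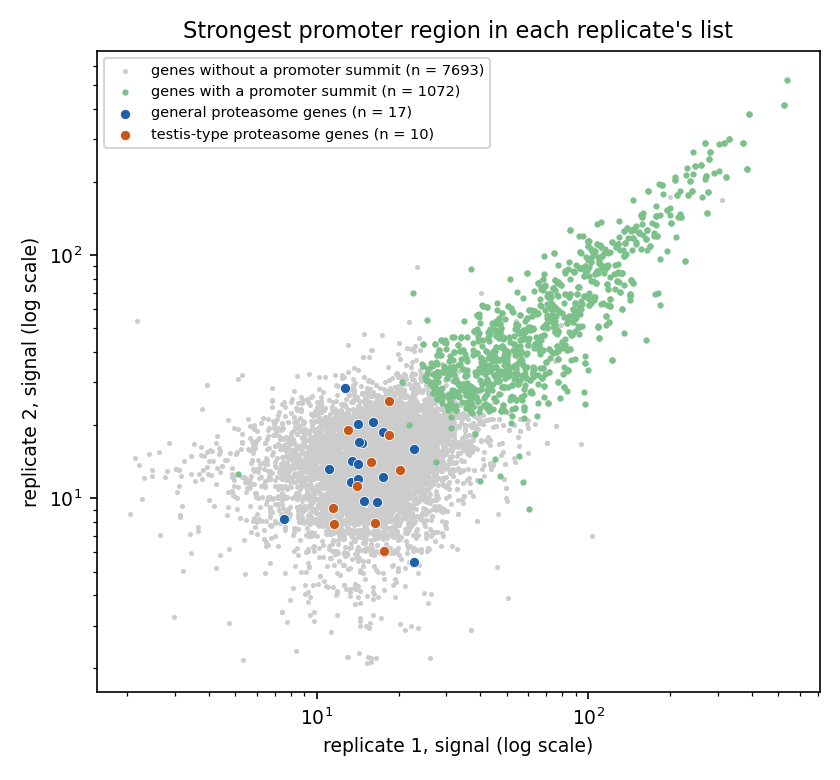
Strongest promoter signal of each gene in replicate 1 (horizontal axis) and replicate 2 (vertical axis), both on log scales, for genes with a ranked region in both lists. The proteasome genes lie within the cloud of genes without a promoter summit, at 22.8 or lower in replicate 1 and 28.5 or lower in replicate 2.

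The nearest conservative summits lay at other genes in most cases. Over the 48 proteasome genes the median distance from a TSS to the nearest summit was 18.6 kb, against 22.6 kb for the 13865 genes with a summit on their chromosome arm. It was 16.0 kb for the general genes and 32.5 kb for the testis-type genes. The distances ran from 1.95 kb at Prosbeta6 to 200 kb at Prosalpha3T. A summit lay within 5 kb of 8 of the 32 general genes (25%) and of 1 of the 16 testis-type genes (6.25%), against 17.7% of all genes. No conservative summit lay inside any of the 48 genes.

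Prosbeta6 was the gene nearest to the 1 kb limit. Its closest summit was 1951 bp upstream of the TSS, with a signal of 85.5, and sat 117 bp from the TSS of CG4101. Rpn5 had the strongest neighbouring peak among the genes with a summit within 5 kb, with a signal of 311 and rank 69 of 1814, at 2304 bp downstream of its TSS. That summit was 82 bp from the TSS of Hpf1. The peak nearest to Rpt2, 2851 bp upstream with a signal of 154, was counted at CG5854 and at RpS19b, a ribosomal protein gene. Rpn9 (2765 bp), Prosalpha4 (3248 bp), Prosalpha3 (3476 bp), Prosbeta7 (3516 bp) and Rpn2 (4072 bp) also had a summit nearby, with signals from 47.5 to 156. In all of these 8 general genes the TSS nearest to the summit belonged to another gene. Prosbeta5R1 was itself the gene nearest to its closest summit, 3608 bp downstream with a signal of 63.4, as was Prosbeta2 at 7038 bp.

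**Figure D4:**
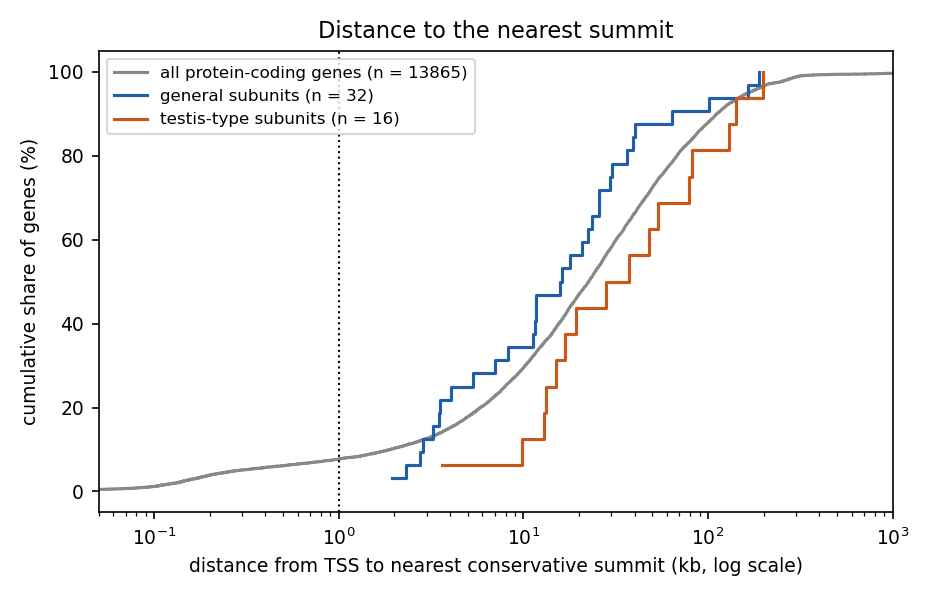
Cumulative share of genes (vertical axis, %) by the distance from a TSS to the nearest conservative summit (horizontal axis, kb, log scale), for general and testis-type proteasome genes and all protein-coding genes, with the 1 kb limit as a dotted line. Both proteasome curves start beyond the limit, at 1.95 kb and 3.61 kb.

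The regions ranked at proteasome promoters lay in a different kind of sequence from the peaks that passed. The summit was in a coding exon for 27 of the 42 regions (64.3%), against 40.2% of the strongest promoter regions of all genes and 1.86% of the 860 conservative promoter summits. Of those summits 44.4% lay in introns and 42.1% between genes. Over the 100 bp around the summit, the GC content was 52.3% ± 8.60 (SD, n = 42 regions) at proteasome genes, 47% ± 11.3 (n = 12344) at all genes and 33.8% ± 10.4 (n = 860) at conservative promoter summits. It was 51.0% ± 9.49 (n = 27) for the general and 54.7% ± 6.31 (n = 15) for the testis-type genes. The part of gene length and base composition in the count of summits was not tested.

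The proteasome promoters themselves were rich in A and T. In the window from 250 bp before to 50 bp after the 5′ end of the gene, the median GC content was 33.2% for proteasome genes, with a range of 23% to 50%, against 38.0% for all genes and 38.3% for genes with a promoter summit. The median was 33.5% for general and 32.7% for testis-type genes. Short sequences were sought in these windows on both strands. AAATAT, an AT-rich word taken because earlier results of these data had it at the peaks, was in 38 of 48 proteasome promoters (79.2%, interval 65.7% to 88.3%), against 53.7% of all promoters and 56.6% of promoters of genes with a summit. It was in 26 of 32 general and 12 of 16 testis-type promoters. In 5 proteasome promoters a match overlapped one of TATAAA, the TATA-box word, which was in 37.5% of proteasome and 45.8% of all promoters.

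TATCGATA is the core of the element bound by DREF, a factor known from flies for its part in the transcription of replication and housekeeping genes. It was in 12 of the 32 general promoters (37.5%, interval 22.9% to 54.7%) and in 0 of the 16 testis-type promoters, which allows up to 18.8%. Of all promoters 9.36% held it, as did 9.31% of those of genes with a promoter summit. The antioxidant response element core TGACNNNGC, which cnc binds with a small Maf partner, was in 5 of 32 general promoters (15.6%, interval 6.86% to 31.8%). It was in 1 of 16 testis-type promoters and in 8.63% of all promoters, a share inside that interval. The E-box CACGTG was in 0 of 48 and in 4.20% of all promoters. The interval for 0 of 48 ends at 7.41%, so a lack of E-boxes was not detectable. The word AAATAT was in 81.25% of general proteasome promoters (interval 64.7% to 91.1%) against 53.7% of all promoters. For the DREF core these shares were 37.5% and 9.36%. Genes with a promoter summit held both at close to the share of all promoters. A link of either word to the presence or absence of summits was not tested. A match is a stretch of letters and not a measured site.

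**Figure D5:**
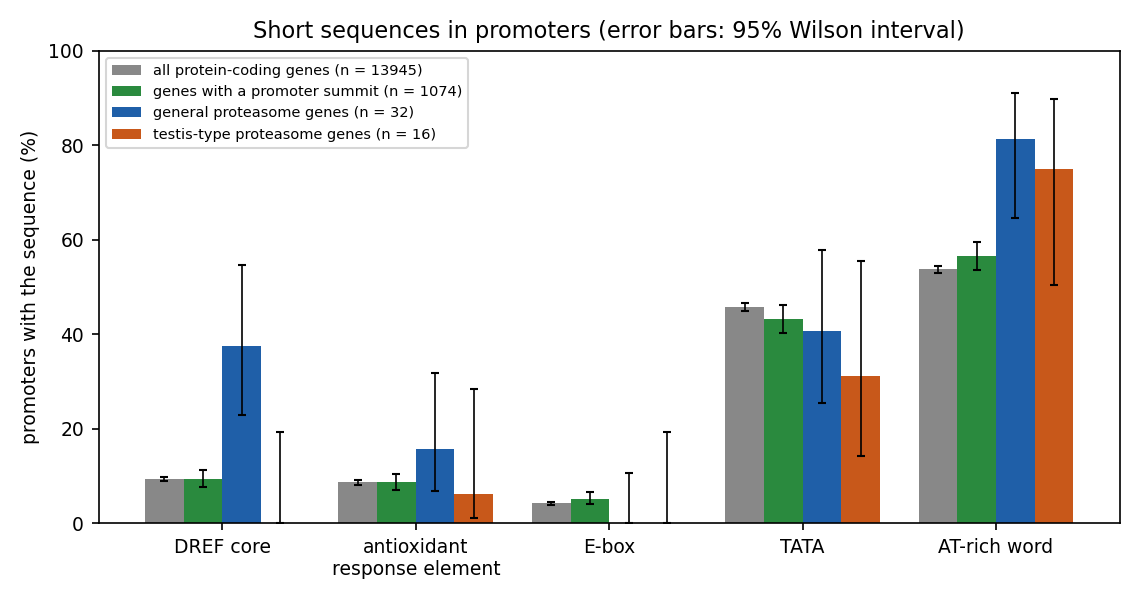
Share of promoters (vertical axis, %) that hold each of 5 short sequences (horizontal axis) on either strand, for general and testis-type proteasome genes, all protein-coding genes and genes with a promoter summit, with 95% Wilson intervals as error bars. The DREF core was in 37.5% of general, 0% of testis-type and 9.36% of all promoters.

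Of the 12 general promoters with a DREF core, 8 are printed to show the core with its flanks, read 5′ to 3′ on the gene's strand from the RefSeq genome of dm6, with the core in capitals. The core is its own reverse complement, so both strands read alike. The windows come from the genes of the core subunits Prosalpha6 (chr2L:10221324-10221353, plus strand), Prosbeta2 (chr3L:14999930-14999959, plus strand) and Prosbeta6 (chr3L:16610444-16610473, minus strand). The lid subunits are Rpn3 (chr2L:19051582-19051611, plus strand), Rpn7 (chr3R:22462033-22462062, minus strand), Rpn9 (chr3R:23733418-23733447, minus strand) and Rpn12 (chr3L:16582801-16582830, plus strand). The ATPase is Rpt5 (chr3R:23752819-23752848, plus strand). The core lay from 217 bp upstream to 26 bp downstream of the 5′ end over all 12 genes.
Prosalpha6: cccgaatccctTATCGATAcccgatacaca
Prosbeta2: ccatgaatataTATCGATAcaatatcgatt
Prosbeta6: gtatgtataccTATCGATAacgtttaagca
Rpn3: tgttatcggagTATCGATAtcgaaaaggct
Rpn7: gcggtataattTATCGATAattttggggtc
Rpn9: gcccggttaaaTATCGATAttctcgcggat
Rpn12: ttgttaaaataTATCGATAttaaagcacaa
Rpt5: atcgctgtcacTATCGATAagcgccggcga

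Genes that work with the proteasome gave a few summits. A list of 27 associated genes, all matched to the annotation, held 2 with a promoter summit (7.41%, interval 2.06% to 23.4%), near the 7.7% of all genes. These were Keap1, 1 of 5 cnc regulators in the list, and CG12321, 1 of 6 genes listed as activators, inhibitors or assembly factors. None was among the 5 ubiquitin and E1 genes, the 3 proteasomal deubiquitinases, the 5 genes of the p97 segregase or the 3 shuttle factors, although the shuttle factor gene Ubqn was called in the optimal list.

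The Keap1 peak (3R, 17080704 to 17081039) had a pooled signal of 122 and ranked 505 of 1814, with 73.4 in replicate 1 and 57.0 in replicate 2, and it passed in both replicates' own lists. Its summit was 927 bp upstream of Keap1, just inside the 1 kb limit, and 628 bp downstream of a TSS of kuk, in an intron of that gene. The CG12321 peak (3R, 18188795 to 18189130) had a pooled signal of 109 and ranked 603. It had 71.8 in replicate 1, where it passed, and 33.2 in replicate 2, where it did not. Its summit was 256 bp upstream of CG12321 and 109 bp upstream of MED17, which encodes a Mediator subunit. When each summit was given to its nearest TSS alone, or had to lie within 250 bp, neither gene was called, and with a limit of 500 bp CG12321 alone was.

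The 100 bp around these summits are printed beside those of 2 regions of testis-type genes that did not pass, as examples of their base composition. They are read on the gene's strand, with AAATAT or its reverse complement in capitals. The windows are at Keap1 (chr3R:17080822-17080921, minus strand, GC content 29%), CG12321 (chr3R:18188913-18189012, minus strand, 15%), Prosbeta5R2 (chr2L:17990900-17990999, plus strand, 54%) and Prosalpha3T (chr3R:31124084-31124183, minus strand, 42%). The pair that passed was poorer in G and C than the pair that did not. The region of Rpn6, which was stronger than that of Prosalpha3T and did not pass either, is not printed. It had a GC content of 36%.
Keap1: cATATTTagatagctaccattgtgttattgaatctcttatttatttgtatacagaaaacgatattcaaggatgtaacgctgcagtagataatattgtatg
CG12321: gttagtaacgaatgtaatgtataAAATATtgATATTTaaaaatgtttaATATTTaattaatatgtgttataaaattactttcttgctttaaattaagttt
Prosbeta5R2: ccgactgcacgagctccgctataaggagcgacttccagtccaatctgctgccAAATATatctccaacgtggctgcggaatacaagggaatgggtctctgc
Prosalpha3T: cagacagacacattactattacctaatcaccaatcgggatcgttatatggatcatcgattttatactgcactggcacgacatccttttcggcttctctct

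Promoter summits at other complexes of many housekeeping subunits were counted for comparison. They were present at 6 of 88 cytosolic ribosomal protein genes (6.82%, interval 3.16% to 14.1%) and at 8 of 73 mitochondrial ribosomal protein genes (11.0%, interval 5.66% to 20.2%), on either side of the 7.7% of all genes. Both counts depended on the lists and rules used, as did the share of all genes. The cytosolic count fell to 3 of 88 (3.41%) in replicate 2's own list, where 4.96% of all genes were called. It was also 3 of 88 at an IDR of 0.001 or less, against 6.35% of all genes. With the stronger 50% of peaks it was 2 of 88 (2.27%), against 4.90% of all genes. The mitochondrial count fell to 3 of 73 (4.11%) when each summit was given to its nearest TSS alone, against 5.68% of all genes. With a limit of 2 kb the counts rose to 8 of 88 (9.09%) and 11 of 73 (15.1%), against 10.2% of all genes. The intervals of both groups overlap that of the proteasome genes, which ends at 7.41%, and the difference was not tested. In the pooled list, 8 of the cytosolic (9.09%) and 9 of the mitochondrial ribosomal protein genes (12.3%) were in the top 10% of all genes. Of the 48 proteasome genes 0 were. This top 10% held 1068 of the 1074 genes with a promoter summit, so it largely repeats the count of summits.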

How the data were processed

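Per the labels, ChIP-seq was done on 2 biological replicates of 1 group, with coordinates on dm6. Per the deposited text with each sample, lists were derived from alignments of the replicates and a shared control, which was not analysed here, so likeness between replicates may come in part from that control. The aligner and peak caller are not given in the sources used here. The deposited signal is the authors' peak strength, of unstated scale. The deposited score is the authors' scaled IDR, and conservative peaks start at a score of 830 (an IDR of 0.00999). The deposited −log10 values give the IDR of ranked regions. The optimal list is the authors' other thresholded list of the pooled samples.

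Genes and TSSs came from Ensembl release 115, and sequence from the RefSeq genome of dm6. Summits up to 1 kb from a TSS were counted as promoter summits, and a count of 0 was given a limit of 3 counts of the total. Intervals were computed with scipy 1.17.1 in Python 3.11.15, and the counting was tested on simulated data. The replicates give no comparison of conditions, and no p-value was computed. The subunit genes and lists were chosen with earlier results of these data known. Genes named are those nearest the 1 kb limit, the 5 with the strongest unbound regions, general genes with no region, testis-type genes in the top 10% of genes in a replicate, and bound associated genes with those sharing the summit. Other names complete a role or list, or were chosen after their values were seen. The lists, thresholds and distances were varied in 11 ways, and a further variation, leaving out the repeated pair of genes, was added after seeing the data.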

Additional observations from a re-analysis of the deposited data

How the results depend on the processing

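The count of proteasome genes with a promoter summit was 0 of 48 under 10 of the 11 variations of lists, thresholds and distances. It could have risen, and did not, with the optimal list, each replicate's own list or any base of a peak (8.09% of all genes). The other rules keep only summits of the main rule, so their count of 0 was fixed in advance. They were an IDR of 0.001 or less (6.35% of all genes) and the stronger 50% of peaks (4.90%). Limits of 500 bp (6.09%) and 250 bp (4.63%), the nearest TSS (5.68%) and the gene's 5′ end as the TSS (6.39%) were also among them. Shares below 6.25% lie under the limit that 0 of 48 allows. With a limit of 2 kb the count was 1 of 48 for proteasome genes and 1 of 32 for general genes (Prosbeta6), and 0 of 16 for testis-type genes. Leaving out either replicate gave 0 to 0 in all 3 groups. Without Prosalpha1 and Prosalpha1R, an alternative chosen after seeing the data, the counts were 0 of 46, 0 of 31 and 0 of 15. These counts were fixed too, because leaving out genes cannot raise a count of 0. No paired analysis was possible because the replicates form 1 group. Depth was unknown, so weak binding below the authors' threshold was not detectable, and with 48 genes a share of up to 6.25% cannot be told from 0.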
